A study of Mus musculus with 2 samples.

Results

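Mt1, Mt2 and Mt3 encode the metallothioneins that could be measured in these hippocampal cells, and all 3 were described here in every cell class. They were taken by symbol and are 3 of the 32285 genes in the deposited matrices, each matched by 1 row. Astrocytes held the highest level of each of them among the 14 classes compared, in both libraries. Ependymal cells, too few to be compared, held more Mt3 than astrocytes. In astrocytes of 60TM mice Mt1, Mt2 and Mt3 stood 1.61-fold, 1.43-fold and 1.27-fold higher than in WT astrocytes. This gap was uneven between astrocyte clusters and was largest in a cluster led by Lcn2, Cxcl10 and C3, which held only 19 WT cells.

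Single cells of the hippocampus were profiled at 7 weeks of age in 60TM and WT mice, with 1 library per genotype and 3 mice pooled in each. The 60TM mice carry the genotype labelled GFAP-hGFAP on a C57BL6/J background, a transgene that adds human GFAP, and the series names them an Alexander disease model. As the name reads, GFAP sequence drives the transgene, so it is active in cells that use that promoter, astrocytes above all. The WT mice are C57BL6/J without the transgene. Tissue of both genotypes was dissociated with papain and captured with 10x Chromium 3′ chemistry. Barcodes were not assigned to single mice, so the spread between mice is unknown. Because each genotype has 1 library, no test between genotypes was possible, differences have no replicate check, and all intervals are 95% intervals that cover counting error only.

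Metallothioneins are small cysteine-rich proteins that bind zinc and copper. Mt1 and Mt2 are induced in many tissues by metals, glucocorticoids, cytokines and oxidative stress, and metals act through the zinc-sensing factor MTF1 at metal response elements. Mt3 was first known as a growth-inhibitory factor of brain and is much less responsive to metals, while Mt4 belongs to stratified epithelium.

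The genes lie side by side on the plus strand of mouse chromosome 8 (GRCm38, GENCODE M21). Mt3 (ENSMUSG00000031760) runs from 94152607 to 94154146, Mt2 (ENSMUSG00000031762) from 94172664 to 94173568, and Mt1 (ENSMUSG00000031765) from 94179082 to 94180327. Mt4, upstream of Mt3 in the same cluster, had 0 UMIs (unique molecular identifiers, counted transcripts) in the 60TM library and 0 in the WT library. The 250 bases before each RefSeq start (GRCm38.p6, plus strand), which can differ from the GENCODE start, are shown because the members differ in them. Capitals mark matches to the core of the metal response element, written TGCACNC or TGCGCNC and searched on both strands. The windows are chr8:94178839-94179088 for Mt1, chr8:94172368-94172617 for Mt2 and chr8:94152357-94152606 for Mt3.
Mt1: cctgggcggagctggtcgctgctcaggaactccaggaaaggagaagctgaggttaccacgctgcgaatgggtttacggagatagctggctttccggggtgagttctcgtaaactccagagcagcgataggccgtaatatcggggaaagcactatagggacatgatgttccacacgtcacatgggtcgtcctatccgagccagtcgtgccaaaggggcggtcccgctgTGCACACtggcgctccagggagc
Mt2: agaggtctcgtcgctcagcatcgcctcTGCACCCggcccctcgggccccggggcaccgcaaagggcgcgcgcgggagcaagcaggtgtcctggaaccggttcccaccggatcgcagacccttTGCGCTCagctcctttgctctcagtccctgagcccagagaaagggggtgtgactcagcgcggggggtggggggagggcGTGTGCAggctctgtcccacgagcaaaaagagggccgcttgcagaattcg
Mt3: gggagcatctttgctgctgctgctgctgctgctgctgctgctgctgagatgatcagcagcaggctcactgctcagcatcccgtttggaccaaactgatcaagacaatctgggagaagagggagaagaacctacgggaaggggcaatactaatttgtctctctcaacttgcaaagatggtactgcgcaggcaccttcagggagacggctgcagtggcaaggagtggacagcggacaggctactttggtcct

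The Mt2 window held 3 such matches before the start, the Mt1 window 1 and the Mt3 window none. Counting also the 50 bases after the start, Mt1 had 3 matches, Mt2 had 4 and Mt3 had 1. Of 32817 promoter windows of the same 300 bases, 25.7% held at least 1 match, 7.12% at least 2 and 0.518% at least 4. An antioxidant response element, written TGACNNNGC, matched once before the Mt2 start and in neither of the other two windows, against 12.4% of all windows. A STAT site, written TTCNNNGAA, matched in none of the 3 windows, against 8.29% of all windows. A match of letters is no evidence of binding, and these windows end 50 bases after the annotated start. Sites beyond that were not searched. For Mt1, matches lie 3 to 9 and 21 to 27 bases after that start, so its count before the start rests on the annotation used.

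Reads of the members can be told apart. No stretch of 31 bases in the annotated transcripts is shared among Mt1, Mt2 and Mt3, and only 3 of the 573 such stretches of Mt2 recur in another gene, Pip5k1a. The antisense gene Gm45774 overlaps Mt2 over 749 bases and had 100 UMIs in the 60TM library and 26 in the WT library, against 58534 UMIs of Mt2 in 60TM and 18636 in WT.

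The 60TM library held 8733 barcodes and 80684152 UMIs (median 7270 per barcode), and the WT library 6861 barcodes and 63532407 UMIs (median 7053). After filtering, 7574 cells remained in 60TM and 6086 in WT, in 29 clusters, and 14 classes had at least 50 cells in each library. Class names stand for a shared marker profile (astrocyte-like, microglia-like and so on), and each rests on at least 3 markers. Mouse Gfap, counted as a check of the labels, stood at 1331 CPM in 60TM astrocytes and 393 CPM in WT astrocytes (UMIs per 1000000 UMIs of the class), a ratio of 3.39 (3.25 to 3.54). If and how far transcripts of the human GFAP sequence add to these mouse Gfap counts was not tested. The libraries shared 20 barcode sequences, 14 of them among kept cells. Ttr, a choroid plexus gene, stood at 462 CPM in 60TM astrocytes and 25.6 CPM in WT astrocytes. Folr1, another such gene, stood at 3.17 CPM in 60TM astrocytes and 1.33 CPM in WT ones, from 51 and 8 UMIs. The 60TM library held 242 choroid plexus cells and the WT library 60, and the part of this in the gap was not tested.

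In astrocytes, the most abundant member was Mt1. It had 300891 UMIs at 18715.5 CPM in 2039 60TM astrocytes, against 69926 UMIs at 11640 CPM in 955 WT astrocytes. The 60TM to WT ratio was 1.61 (1.60 to 1.62). Mt3, the brain-enriched member, stood at 8966.5 CPM in 60TM astrocytes and 7068 CPM in WT astrocytes, a ratio of 1.27 (1.26 to 1.28). Mt2 stood at 2794 CPM in 60TM astrocytes and 1958 CPM in WT astrocytes, a ratio of 1.43 (1.40 to 1.46). All 3 members were thus higher in 60TM, and Mt1 alone passed a ratio of 1.5. In the same class 7.64% of 10660 genes with at least 100 UMIs passed 1.5-fold higher in 60TM and 6.91% passed it lower, and the median log2 ratio of all these genes was -0.04. Together the members took 3.05% of all UMIs of 60TM astrocytes and 2.07% of those of WT astrocytes. Mt1 ranked 4th among all genes by UMIs in astrocytes of both libraries.

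Per cell, Mt1 varied widely. A 60TM astrocyte held a median of 93 Mt1 UMIs (quartiles 48.5 and 187, highest 2937), and a WT astrocyte a median of 61 (quartiles 35 and 97.5, highest 410). The median depth was 7125 UMIs in 60TM astrocytes and 5992 in WT astrocytes, so cells were also thinned to 2000 UMIs each, which left out 204 shallower cells in 60TM and 72 in WT. After thinning the median cell held 29 Mt1 UMIs in 60TM and 21 in WT, and the 90th percentile was 65 in 60TM and 38 in WT. The upper tail therefore differed more than the middle. Above the WT 90th percentile of 38 UMIs lay 33.2% of 60TM astrocytes (31.03 to 35.4) and 9.63% of WT astrocytes (7.76 to 11.8). For Mt2 the corresponding shares, above 7 UMIs, were 21.4% in 60TM and 8.49% in WT. For Mt3, above 22 UMIs, they were 25.6% in 60TM and 8.95% in WT.

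The 4 astrocyte clusters, formed without the members among the variable genes, did not behave alike. Cluster 2, led by Agt, Hes5 and Slc6a11, held 14.3% of 60TM astrocytes and 39.0% of WT astrocytes. Its Mt1 level was 9802 CPM in 60TM and 10662 CPM in WT, a ratio of 0.919 (0.903 to 0.936), and Mt2 and Mt3 were also lower there in 60TM, at ratios of 0.846 and 0.864. Cluster 3, led by Hsd11b1, Ntsr2 and Cldn10, held 50.2% of 60TM astrocytes and 52.4% of WT astrocytes. Its Mt1 level was 16250 CPM in 60TM and 12188 CPM in WT, a ratio of 1.33 (1.32 to 1.35), with 1.16 for Mt2 and 1.13 for Mt3. Within these 2 clusters, which held most WT astrocytes, the members thus went in opposite directions, and none passed 1.5-fold.

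Cluster 23, led by the secreted iron-binding protein gene Lcn2, the chemokine gene Cxcl10 and the complement gene C3, was almost absent from WT. It held 486 cells in 60TM (23.8% of astrocytes) and 19 in WT (1.99%). WT astrocytes had 0 Lcn2 UMIs, so the 19 WT cells lacked its leading gene and may not match its 60TM cells. Mt1 stood at 24859 CPM in its 60TM cells and 10023 CPM in its WT cells, a ratio of 2.48 (2.35 to 2.62), with 2.34 for Mt2 and 1.87 for Mt3. With 34.4% of the UMIs of 60TM astrocytes, this cluster supplied 45.7% of their Mt1 UMIs, 47.7% of their Mt2 UMIs and 40.5% of their Mt3 UMIs. After thinning, 61.9% of its 60TM cells lay above the WT 90th percentile of Mt1. Leaving the cluster out lowered the astrocyte ratios to 1.33 for Mt1, 1.13 for Mt2 and 1.15 for Mt3. No member then passed 1.5-fold, while 3.15% of 9907 genes passed it higher and 4.37% lower. Its median depth was 10306 UMIs in 60TM and 7107 in WT.

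Cluster 24 was shallow, with a median of 1420.5 UMIs in 238 60TM cells and 1481.5 UMIs in 64 WT cells, and Mt1 and Mt2 were themselves among its leading genes, beside Aldh1a1 and Gfap. Its Mt1 level was the highest of all clusters in both libraries, 30839 CPM in 60TM and 20502 CPM in WT. In the few cells deep enough for thinning (57 in 60TM and 19 in WT), the median was 54 Mt1 UMIs in both. Leaving out this cluster kept the astrocyte ratio at 1.60 for Mt1, and leaving out clusters 23 and 24 together gave 1.29 for Mt1, 1.11 for Mt2 and 1.13 for Mt3. When 60TM clusters were weighted by the WT shares of UMIs, the ratios were 1.20 for Mt1, 1.06 for Mt2 and 1.04 for Mt3.

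**Figure D1:**
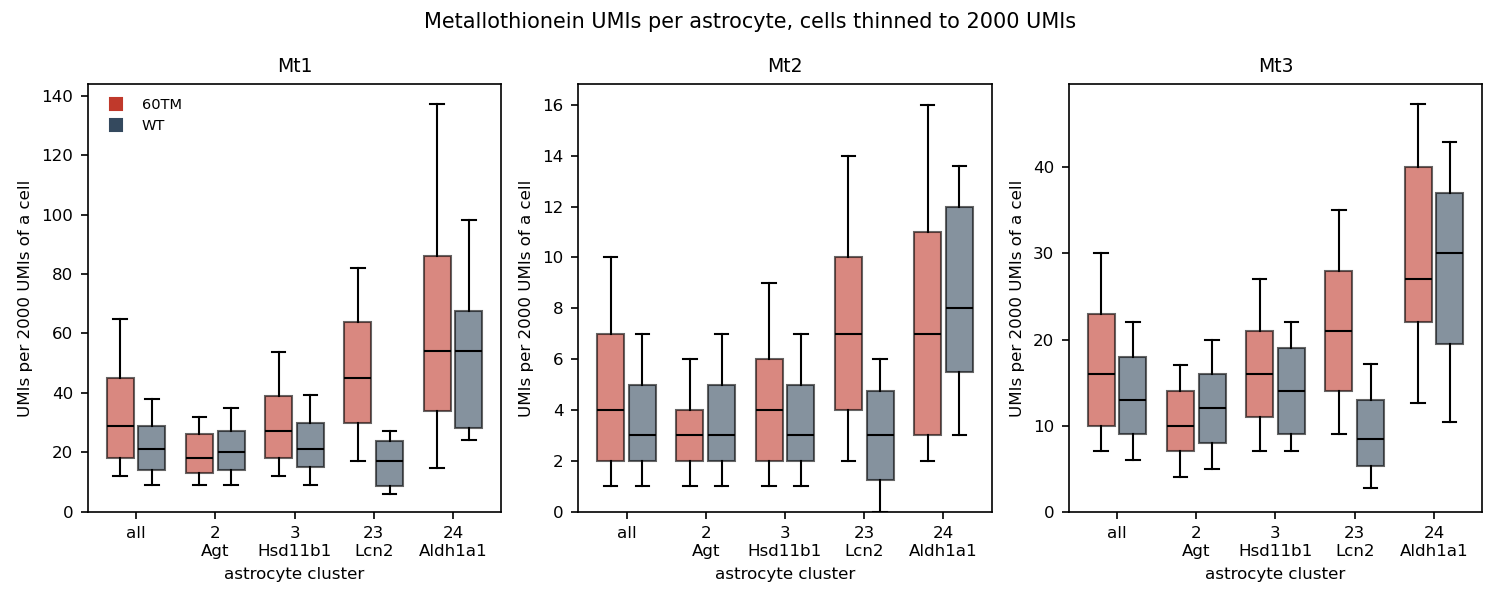
Metallothionein UMIs per astrocyte after thinning each cell to 2000 UMIs (y axis, UMIs per 2000), for all astrocytes and for each astrocyte cluster (x axis, cluster number and a leading gene), 60TM in red to the left of WT in dark blue. Boxes span the quartiles, lines mark medians and whiskers run from the 10th to the 90th percentile. The median of Mt1 over all astrocytes was 29 UMIs in 60TM and 21 in WT. In the Lcn2-led cluster it was 45 in 60TM and 17 in WT, the latter from 18 cells.

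Several measures of stress and quality also differed between 60TM and WT astrocytes, and their part in the metallothionein values was not tested. Of 17 dissociation and immediate early genes, 13 had at least 100 UMIs in astrocytes. All of these passed 1.5-fold higher in 60TM, as 7.64% of all measured genes did, with 6.91% lower. The list had a summed level of 2126 CPM in 60TM and 598 CPM in WT. Within cluster 2, where the members were lower in 60TM, that sum was 879 CPM in 60TM and 621 CPM in WT. Within cluster 3 it was 1583 CPM in 60TM and 560.5 CPM in WT, and within cluster 23 it was 3436 CPM in 60TM and 979 CPM in WT. Within cluster 24, where the thinned Mt1 medians were equal, it was 1644 CPM in 60TM and 627 CPM in WT. Ribosomal protein genes took 4.35% of UMIs in 60TM astrocytes and 3.07% in WT astrocytes.

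The other genes of metal handling were counted in astrocytes too, where 7.64% of all measured genes passed 1.5-fold higher and 6.91% lower. Of 25 genes for metal sensing and zinc transport, 18 had at least 100 UMIs. Of these, 1 was past 1.5-fold higher and 2 were past it lower in 60TM, with a median log2 ratio of 0.08. Slc39a14, a zinc and iron importer, stood at 38.6 CPM in 60TM and 18.0 CPM in WT, a ratio of 2.15 (1.75 to 2.66). The 2 genes past it lower were the zinc and manganese exporters Slc30a10 and Slc30a1. The other measured Slc30a genes had ratios from 0.893 to 1.14, with intervals that hold 1. Slc30a10 stood at 63.6 CPM in 60TM and 148 CPM in WT, a ratio of 0.430 (0.393 to 0.471), and Slc30a1, itself a target of MTF1, stood at 33.4 CPM in 60TM and 50.1 CPM in WT, a ratio of 0.667 (0.578 to 0.770). The astrocyte-rich transporter Slc39a12 had a ratio of 0.716 (0.683 to 0.752), Slc39a1 1.18 and Slc39a10 1.21. Mtf1 stood at 15.3 CPM in 60TM and 12.98 CPM in WT, a ratio of 1.18 (0.910 to 1.54), an interval that holds 1.

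Of 15 copper-handling genes, all with at least 100 UMIs, 1 was past 1.5-fold higher and none lower, with a median log2 ratio of -0.15. That gene was Cp, the copper-carrying ferroxidase ceruloplasmin, at 46.3 CPM in 60TM and 2.83 CPM in WT, a ratio of 16.4 (10.1 to 28.2). The copper importer Slc31a1 had a ratio of 0.733 (0.637 to 0.847), Cox17 0.928 and Steap2 0.741, while Slc31a2 had 1.12 and the copper chaperone Atox1 1.04. Sod1, the copper and zinc superoxide dismutase, had a ratio of 1.035 (0.957 to 1.12).

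Targets of factors known to induce Mt1 and Mt2 elsewhere were counted in astrocytes beside the members. Of all measured genes there, 7.64% passed 1.5-fold higher and 6.91% lower. Among targets of the cytokine-responsive factor STAT3, 7 of 9 measured genes passed 1.5-fold higher and none lower, with a median log2 ratio of 1.79, or 2.64 when the 2 genes at 0 in WT are set at a floor of 3 UMIs. Those genes were Lcn2, with 19136 UMIs in 60TM and 0 in WT, and Bcl3, with 197 UMIs in 60TM and 0 in WT. Junb stood at 285 CPM in 60TM and 14.98 CPM in WT. The lowest of the list were Pim1 at 1.07, Il6st at 1.12 and Stat3 itself at 1.91. Among targets of the oxidative-stress factor NRF2, 7 of 10 passed higher and none lower, with a median log2 ratio of 0.97. They included the haem oxygenase gene Hmox1 at 116 CPM in 60TM and 8.82 CPM in WT, Srxn1 at a ratio of 5.27 and Txnrd1 at 3.51, while Slc7a11 had 1.45, Gstm1 1.34 and Gsta4 1.19. Among glucocorticoid targets, 4 of 9 passed higher and none lower, with a median log2 ratio of 0.32. Fkbp5 stood at 6.84 CPM in 60TM and 0.832 CPM in WT, Cdkn1a had a ratio of 6.38 and Zbtb16 2.46, and Pdk4 had 0.864, Tsc22d3 0.835 and Ddit4 0.964. Without cluster 23 the counts past 1.5-fold higher were 4 of 7 for STAT3 (with 1 lower), 4 of 10 for NRF2 and 1 of 7 for glucocorticoid targets. There 3.15% of all measured genes passed it higher and 4.37% lower.

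Across the 14 classes, the level of Mt1 fell off in steps. After astrocytes, radial glia-like cells, the stem-like cells of the dentate gyrus, had 8114 CPM in 60TM and 6213 CPM in WT. A group of vascular and border cells followed at lower levels. Endothelial cells had 1783.5 CPM in 60TM and 959 CPM in WT. Border macrophages, which sit along meninges and vessels, had 1561 CPM in 60TM and 1057 CPM in WT. The intervals of these 4 classes lay above those of all others in both libraries. In 60TM the lowest Mt1 levels lay in Cajal-Retzius cells, early-born neurons of the outer layer (173 CPM in 60TM and 66.4 CPM in WT), and in committed oligodendrocyte precursors (164 CPM in 60TM and 192 CPM in WT). In WT they lay in Cajal-Retzius cells and immature neurons (93.0 CPM). Neighbours with overlapping intervals in 60TM were oligodendrocytes and dividing cells, OPCs (oligodendrocyte precursor cells) and choroid plexus cells, microglia and immature neurons, and the lowest pair. In WT they were border macrophages and endothelial cells, choroid plexus cells and oligodendrocytes, pericytes with mature neurons and mature neurons with microglia, both kinds of oligodendrocyte precursors, and the lowest pair.

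Mt2 was again highest in astrocytes and radial glia-like cells, but dividing cells, led by Pclaf and Top2a, came next with 399 CPM in 60TM and 346.5 CPM in WT, before endothelial cells. Below endothelial cells, most neighbours of Mt2 had overlapping intervals. Mt3 had another order. After astrocytes and radial glia-like cells (6921 CPM in 60TM and 4922 CPM in WT), choroid plexus epithelium came next with 2490 CPM in 60TM and 2851 CPM in WT, and OPCs, mature neurons and Cajal-Retzius cells held more Mt3 than Mt1. Ependymal cells, the ciliated lining of the ventricles, were too few to be compared, with 42 cells in 60TM and 131 in WT. Their levels were high for all members. Mt1 stood at 7683 CPM in 60TM and 7680 CPM in WT, a ratio of 1 (0.969 to 1.03), and Mt3 at 9499 CPM in 60TM and 10967 CPM in WT. Those Mt3 levels lay above the astrocyte levels of 8966.5 CPM in 60TM and 7068 CPM in WT.

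**Figure D2:**
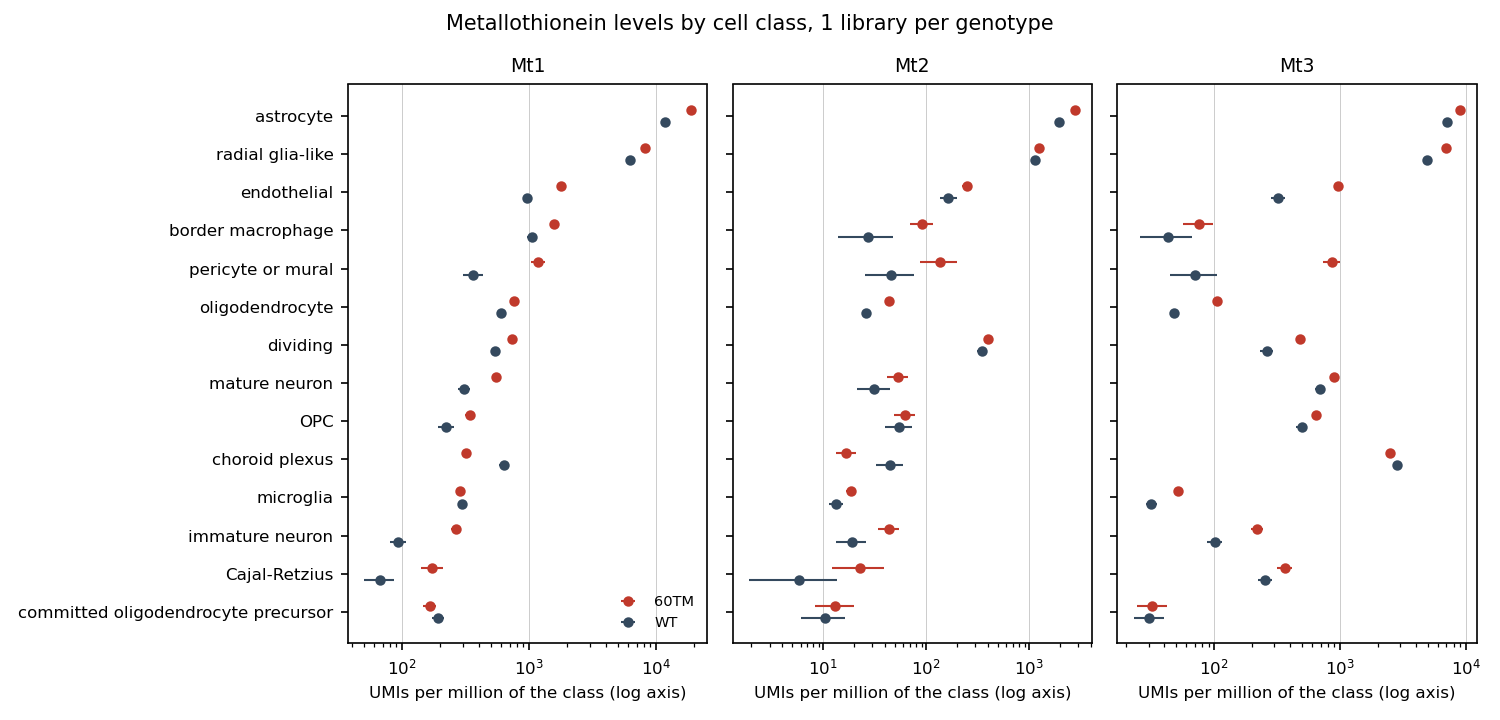
Levels of Mt1, Mt2 and Mt3 (x axis, UMIs per 1000000 UMIs of the class, log axis) in 14 cell classes (y axis, ordered by Mt1 in 60TM), 60TM in red above WT in dark blue, with exact Poisson 95% intervals. Astrocytes lead in each panel, with Mt1 at 18715.5 CPM in 60TM and 11640 CPM in WT, and choroid plexus is high for Mt3 alone.

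By class, the 60TM to WT ratio of Mt1 ran from 0.510 to 3.23, that of Mt2 from 0.376 to 3.90 and that of Mt3 from 0.873 to 12.2. The interval lay above 1 in 11 of 14 classes for Mt1, in 11 for Mt2 and in 12 for Mt3, and below 1 in 1 class for each. Among classes with at least 100 UMIs of the member, the ratio passed 1.5 in 7 of 14 for Mt1, in 4 of 10 for Mt2 and in 6 of 13 for Mt3, while 1.21% to 9.89% of genes did so per class.

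**Figure D3:**
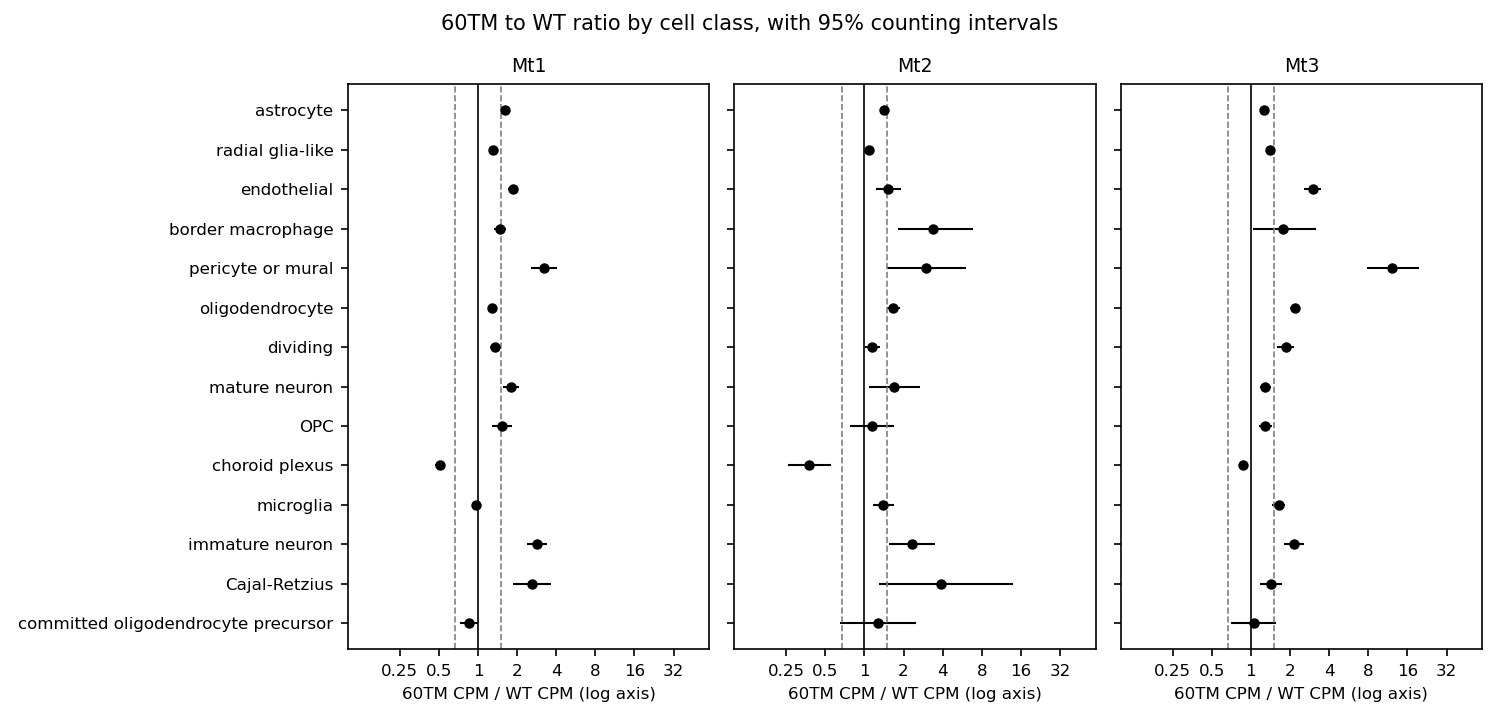
The 60TM to WT ratio of CPM (x axis, log axis) of each member in 14 cell classes (y axis), with exact conditional-binomial 95% intervals. The solid line marks 1 and dashed lines mark 1.5-fold in either direction. Choroid plexus lies below 1 in each panel, at 0.510 for Mt1, and the pericyte ratio of 12.2 for Mt3 lies farthest to the right.

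In radial glia-like cells all members were higher in 60TM, and none passed 1.5-fold, as 3.86% of genes did higher and 4.25% lower. Mt3 had the largest ratio, 1.41 (1.37 to 1.45), against 1.31 (1.27 to 1.34) for Mt1 and 1.09 (1.02 to 1.16) for Mt2, whose ratio was 0.968 in thinned cells. A radial glia-like cell held a median of 52 Mt1 UMIs in 60TM and 40.5 in WT. Their immediate early genes summed to 2145 CPM in 60TM and 1187 CPM in WT.

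Oligodendrocytes, the myelinating cells, held less Mt1 than astrocytes by far but in nearly every cell. Mt1 had a UMI in 99.5% of 60TM oligodendrocytes and 97.9% of WT oligodendrocytes, at median depths of 15716 UMIs in 60TM and 14686 in WT, and after thinning in 67.4% of 60TM cells and 61.3% of WT cells. Mt1 stood at 765 CPM in 60TM and 597.5 CPM in WT, a ratio of 1.28 (1.25 to 1.31). Mt2 stood at 43.3 CPM in 60TM and 26.1 CPM in WT, a ratio of 1.66 (1.48 to 1.87), and Mt3 at 105 CPM in 60TM and 48.2 CPM in WT, a ratio of 2.17 (2.004 to 2.35). Mt2 and Mt3 passed 1.5-fold, as 2.41% of genes did, while 2.14% passed it lower. With free RNA subtracted the Mt2 ratio was 1.46 with the library profile and 1.38 with the few-gene profile. In OPCs Mt1 stood at 342.5 CPM in 60TM and 223 CPM in WT, a ratio of 1.54 (1.29 to 1.84), and it alone passed 1.5-fold, as 1.98% of genes did, with 2.76% lower. That ratio was 1.34 with doublets kept, 1.38 in thinned cells, and 1.15 with the library profile of free RNA subtracted or 0.718 with that of few-gene barcodes. Mt3, at 642 CPM in 60TM and 497 CPM in WT, was the most abundant member in OPCs. In committed oligodendrocyte precursors the intervals of all 3 ratios hold 1, where 2.56% of genes passed 1.5-fold higher and 1.53% lower. They moved with the setting. Mt1, at 0.854, became 1.56 with doublets kept and 0.371 with the few-gene profile subtracted. Mt2, at 1.27, became 2.80 with doublets kept and 0.641 with the library profile subtracted, and Mt3, at 1.06, lay between 0 with the few-gene profile and 2.58 with classes by marker score.

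In microglia, the resident immune cells of the brain, Mt1 stood at 284 CPM in 60TM and 295.5 CPM in WT, a ratio of 0.960 (0.921 to 1). That ratio was 1.06 in thinned cells and 0.311 with the few-gene profile of free RNA subtracted. The cluster with the largest share of microglia was one led by Fosb and Socs3 in 60TM (40.1%) and one led by P2ry12 in WT (48.9%). Within the first of these Mt1 had a ratio of 0.875 (0.818 to 0.936), within the second 1.01 (0.929 to 1.10). Mt3 stood at 51.9 CPM in 60TM and 31.6 CPM in WT, a ratio of 1.64 (1.46 to 1.85), and it alone passed 1.5-fold, as 2.69% of genes did, with 2.22% lower. That value of 51.9 CPM is at the level expected from free RNA in the 60TM library, 54.5 CPM, and after subtraction nothing of it remained. In thinned cells without astrocyte tracers the Mt3 ratio was 1.26.

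Border macrophages held 1137 Mt1 UMIs in 120 60TM cells and 471 in 79 WT cells, a ratio of 1.48 (1.32 to 1.65), with no member past 1.5-fold among those with 100 UMIs (6.19% of genes passed it higher and 4.03% lower). Their 66 Mt2 UMIs in 60TM and 12 in WT gave a ratio of 3.37 (1.80 to 6.84). That ratio was 7.05 with classes by marker score, 14.74 in thinned cells and 9.32 in thinned cells without astrocyte tracers. The last rests on 11 Mt2 UMIs in 59 60TM cells and 1 in 50 WT cells. Per 100 cells the intervals are 9.31 to 33.4 in 60TM and 0.0506 to 11.1 in WT, which overlap. The thinned ratios thus rest on very few WT UMIs. After thinning Mt2 was found in 16% of 60TM cells and 1.49% of WT cells. Their immediate early genes summed to 19406 CPM in 60TM and 16282 CPM in WT.

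Cells of the vessel wall had higher ratios. In endothelial cells Mt1 had a ratio of 1.86 (1.70 to 2.03), and Mt2 stood at 249 CPM in 60TM and 164 CPM in WT, a ratio of 1.52 (1.22 to 1.91). Mt3 stood at 961 CPM in 60TM and 322 CPM in WT, a ratio of 2.99 (2.58 to 3.46). All 3 passed 1.5-fold, as 4.15% of genes did, with 3.80% lower. Measures of astrocyte RNA in these cells differed. The median astrocyte tracer gene stood at 3.57% of its astrocyte level in 60TM endothelial cells and 1.65% in WT ones. The free-RNA share estimated from the astrocyte tracers, as described below, was 29.4% in 60TM and 30.8% in WT. In thinned endothelial cells without any UMI of 12 astrocyte tracers, Mt1 counted 137 UMIs per 100 cells (96.5 to 189) in 60TM and 97.4 (69.0 to 134) in WT. In those with such a UMI it counted 410.5 (373 to 451) in 60TM and 232 (194 to 276) in WT. Among cells without tracer the ratio was 1.41 for Mt1 and 1.44 for Mt2, both under 1.5-fold, and with free RNA subtracted Mt2 stood at 1.455 with the library profile and 1.41 with the few-gene profile. Over all thinned endothelial cells the Mt2 ratio was 2.38. The part of astrocyte RNA in the endothelial ratios was not tested further.

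Pericytes and mural cells had the largest ratios of Mt1 and Mt3 among the 14 classes, from 56 cells in 60TM and 69 in WT. The leading genes of their cluster also included the fibroblast markers Col1a2 and Slc6a13, so fibroblasts may be mixed in. Mt1 stood at 1176 CPM in 60TM and 364 CPM in WT, a ratio of 3.23 (2.57 to 4.08). Mt3 stood at 856 CPM in 60TM and 70.3 CPM in WT, a ratio of 12.2 (7.83 to 19.8). Both passed 1.5-fold, as 9.89% of only 819 genes did (81 genes), while more of them, 123 genes, passed it lower. Few cells carried the Mt3: 30.4% of 60TM cells and 18.8% of WT cells had a UMI, with up to 34 UMIs in 1 60TM cell. The median astrocyte tracer stood at 4.51% of its astrocyte level in 60TM pericytes and 0.914% in WT pericytes. The Mt3 ratio was 4.18 when cells were classed by their highest marker score, 5.82 as a mean over cells and 7.53 in thinned cells.

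Choroid plexus epithelium, which makes cerebrospinal fluid, was the one class of the 14 in which all members were lower in 60TM. Mt1 had 1541 UMIs at 320 CPM in 242 60TM cells, against 654 UMIs at 628 CPM in 60 WT cells, a ratio of 0.510 (0.465 to 0.559). Mt2 had 80 UMIs in 60TM and 46 in WT, a ratio of 0.376 (0.259 to 0.553). Both passed 1.5-fold lower, as 3.21% of genes did, with 9.15% higher. Mt3 stood at 2490 CPM in 60TM and 2851 CPM in WT, a ratio of 0.873 (0.839 to 0.909), and a cell held a median of 40 Mt3 UMIs in 60TM and 40.5 in WT. Markers of oligodendrocytes summed to 129 CPM in 60TM choroid plexus cells and 1213 CPM in WT ones, and markers of astrocytes to 105 CPM in 60TM and 203 CPM in WT. Their part in the difference was not tested. In thinned cells without astrocyte tracers Mt1 counted 70.1 UMIs per 100 cells (55.7 to 87.0) in 60TM and 118 (84.1 to 160) in WT. Other settings ended the 1.5-fold call: a looser gene and stricter mitochondrial limit gave 0.724 for Mt1 and 0.881 for Mt2, doublets kept gave 0.704 for Mt1 and 0.686 for Mt2, classes by marker score gave 0.736 for Mt1, and a mean over cells gave 0.884 for Mt2. With the few-gene profile subtracted the Mt1 ratio was 0.223.

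Neurons held little Mt1 and Mt2. In immature neurons Mt1 stood at 265 CPM in 60TM and 93.0 CPM in WT, a ratio of 2.85 (2.40 to 3.39), Mt2 had a ratio of 2.31 (1.54 to 3.51) and Mt3 stood at 218 CPM in 60TM and 101 CPM in WT, a ratio of 2.16 (1.81 to 2.57). All 3 passed 1.5-fold, as 1.21% of genes did, with 1.66% lower. In thinned cells without astrocyte tracers Mt1 counted 56.6 UMIs per 100 cells (38.2 to 80.8) in 60TM and 17.6 (9.12 to 30.8) in WT, and in cells with such tracers 55.1 in 60TM and 18.3 in WT. In thinned cells the Mt2 ratio was 1.25, and in those without tracers 5.13. The latter rests on 4 Mt2 UMIs in 53 60TM cells and 1 in 68 WT cells, with overlapping intervals. In Cajal-Retzius cells Mt1 had 99 UMIs in 60TM and 57 in WT, a ratio of 2.60 (1.86 to 3.67), past 1.5-fold as were 1.69% of genes (1.58% lower), and Mt3 had a ratio of 1.42 (1.17 to 1.73). In mature neurons Mt3 stood at 887 CPM in 60TM and 686 CPM in WT, a ratio of 1.29 (1.17 to 1.42), and Mt1 and Mt2 had ratios of 1.79 and 1.69, past 1.5-fold as were 3.62% of genes (4.97% lower). As a mean over cells the Mt1 ratio of mature neurons was 1.43, and in thinned cells 1.40, but it was 3.32 with doublets kept and 4.95 with classes by marker score. Their Mt2 ratio was 1.38 with the library profile of free RNA subtracted and 1.26 with the few-gene profile, against 3.20 with doublets kept, 3.21 as a mean over cells and 5.89 by marker score. Mt3 of mature neurons reached 2.64 by marker score. The Mt1 ratio of Cajal-Retzius cells was 1.60 with the library profile subtracted, 4.96 in thinned cells without tracers and 12.99 by marker score. The 4.96 rests on 13 Mt1 UMIs in 60TM and 4 in WT. Their Mt3 ratio was 2.32 by marker score. With the free-RNA profile of few-gene barcodes, the Mt1 ratio was 1.25 in immature neurons, where Mt2 stood at 1.43 and Mt3 at 1.48, 0.123 in Cajal-Retzius cells and 1.41 in mature neurons.

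Dividing cells were set apart by their Mt2. Mt2 stood at 399 CPM in 60TM and 346.5 CPM in WT, a ratio of 1.15 (1.005 to 1.32) that was 0.981 in thinned cells, and Mt1 at 736 CPM in 60TM and 540 CPM in WT, a ratio of 1.36 (1.23 to 1.51) that was 3.33 with classes by marker score. Mt3, at 481 CPM in 60TM and 260 CPM in WT, had a ratio of 1.85 (1.60 to 2.14) and alone passed 1.5-fold, as 2.68% of genes did, with 2.51% lower.

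Free RNA was estimated for each class because the members are among the most abundant transcripts of the tissue. The summed library, taken as the profile of free RNA, held Mt1 at 4994 CPM in 60TM and 2016 CPM in WT, Mt2 at 725.5 CPM in 60TM and 293 CPM in WT, and Mt3 at 2693 CPM in 60TM and 1396.5 CPM in WT. For Mt1 that is 2.48 times as much in 60TM as in WT, and the barcodes with few genes had 5356.5 CPM in 60TM and 1321 CPM in WT. The free share of each class was set from genes of other classes, the tracers, by the lowest of the estimates from foreign lists. It was 2.03% of UMIs in 60TM microglia and 0.712% in WT microglia, and 1.02% in 60TM oligodendrocytes and 0.424% in WT ones. These lowest estimates came from the choroid plexus list and rest on Ttr. In 60TM choroid plexus cells Ttr held 266520 of the 268175.5 CPM of that list. The astrocyte tracers alone gave higher shares, with 60TM below WT. They gave 3.71% in 60TM microglia and 5.40% in WT microglia, and 5.26% in 60TM oligodendrocytes and 7.25% in WT ones. In 60TM pericytes they gave 124%, more than all UMIs, so that list is an uneven measure.

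Against the library profile at the lowest share, Mt1 stood above the free-RNA estimate in all 14 classes of both libraries. Mt3 lay near it in 3 classes of 60TM. Mt1 in microglia was 2.80 times the expected value in 60TM and 20.6 times in WT, and in oligodendrocytes 15.1 times in 60TM and 69.9 times in WT. In Cajal-Retzius cells Mt1 was 2.09 times the expected value in 60TM and 6.99 times in WT, but with the few-gene profile 168 of its 173 CPM in 60TM were expected. Mt3 in 60TM stood at 0.952 times the expected value in microglia, 1.08 times in border macrophages and 1.17 times in committed oligodendrocyte precursors, while in WT those classes had 3.18, 3.996 and 4.69 times. Mt3 in choroid plexus was 120 times the expected value in 60TM and 57.1 times in WT, and in OPCs 11.8 times in 60TM and 73.0 times in WT. In microglia the median astrocyte tracer stood at 0.501% of its astrocyte level in 60TM and 0.306% in WT, while Mt1 stood at 1.52% of its own astrocyte level in 60TM and 2.54% in WT. All these multiples would be lower at the astrocyte-tracer share. At that share the expected Mt1 would exceed the observed in 60TM Cajal-Retzius cells (4.17%), immature neurons (9.69%) and OPCs (29.7%). It would also do so in 60TM committed oligodendrocyte precursors (4.81%), mature neurons (15.7%), dividing cells (23.1%) and pericytes. In WT it would do so in these classes except the committed precursors. The expected Mt3 would exceed the observed in oligodendrocytes (5.26% in 60TM and 7.25% in WT), microglia and border macrophages of both libraries. The same would hold for Mt3 in both kinds of oligodendrocyte precursors, dividing cells, immature neurons and pericytes of both libraries, and in WT endothelial cells.

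**Figure D4:**
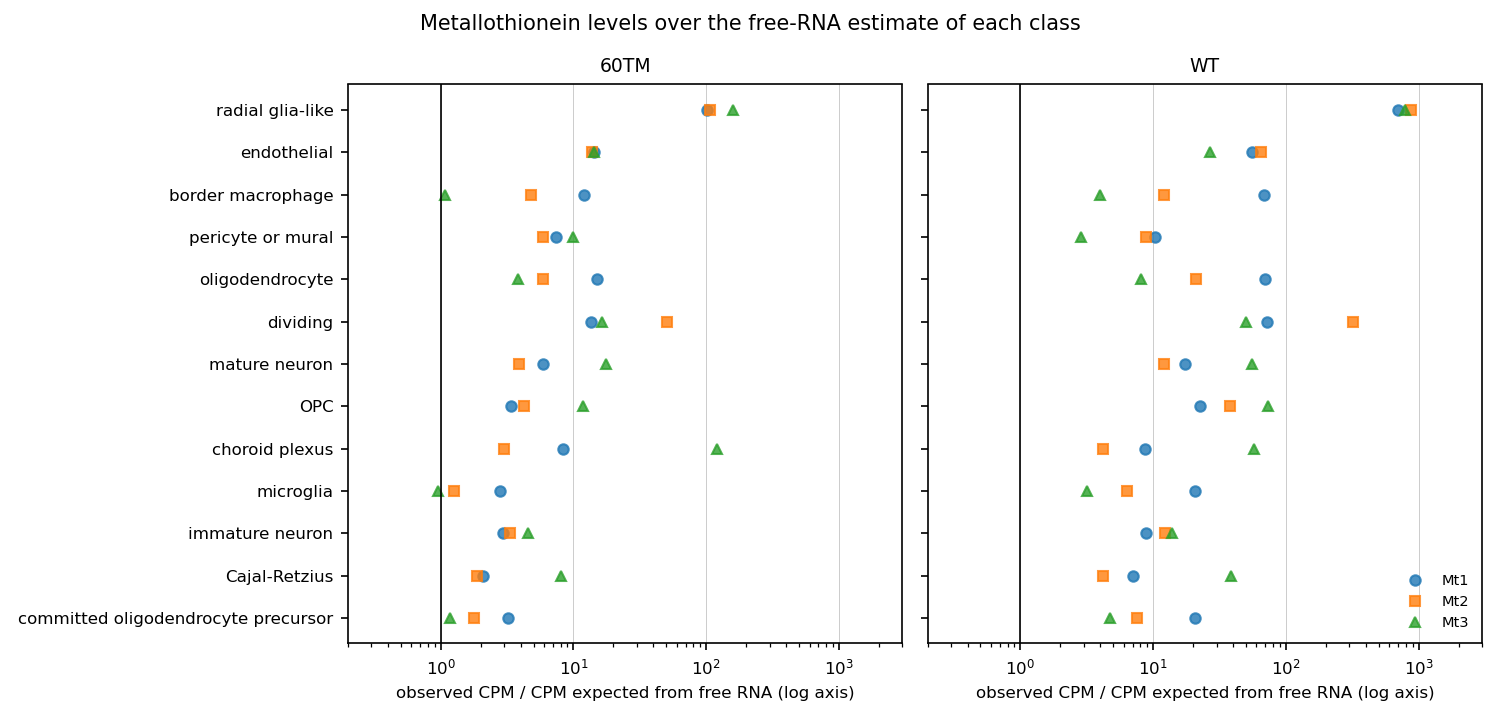
Observed CPM of each member over the CPM expected from free RNA (x axis, log axis) in the 13 classes other than astrocytes (y axis), 60TM in the left panel and WT in the right. The line marks 1, where the free-RNA estimate equals the observed level. The estimate uses the lowest share given by the tracer lists. In 60TM, Mt3 of microglia lies at 0.952, and all points of WT lie above 1.

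The proportions between the members also differed between classes. Mt1 UMIs numbered 6.70 per Mt2 UMI in 60TM astrocytes (6.63 to 6.77) and 5.95 in WT astrocytes (5.83 to 6.06). Oligodendrocytes had 17.7 in 60TM and 22.9 in WT, and microglia had 15.3 (13.7 to 17.0) in 60TM and 22.1 (19.0 to 25.9) in WT. In these classes and in border macrophages, with 17.2 (13.4 to 22.4) in 60TM and 39.3 (22.3 to 76.5) in WT, the 60TM quotient lay nearer to that of astrocytes. In choroid plexus it lay farther, at 19.3 (15.4 to 24.4) in 60TM and 14.2 (10.5 to 19.6) in WT. Dividing cells had the lowest quotient, 1.85 (1.65 to 2.06) in 60TM and 1.56 (1.37 to 1.78) in WT. Mt3 UMIs per Mt1 UMI numbered 0.479 in 60TM astrocytes and 0.607 in WT astrocytes, 7.78 in 60TM choroid plexus and 4.54 in WT choroid plexus, and 0.0484 in 60TM border macrophages and 0.0403 in WT ones. Mt3 exceeded Mt1 in choroid plexus, OPCs, mature neurons and Cajal-Retzius cells of both libraries. UMIs of this 3′ method count transcripts once whatever their length, so these quotients are not scaled by length.

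**Figure D5:**
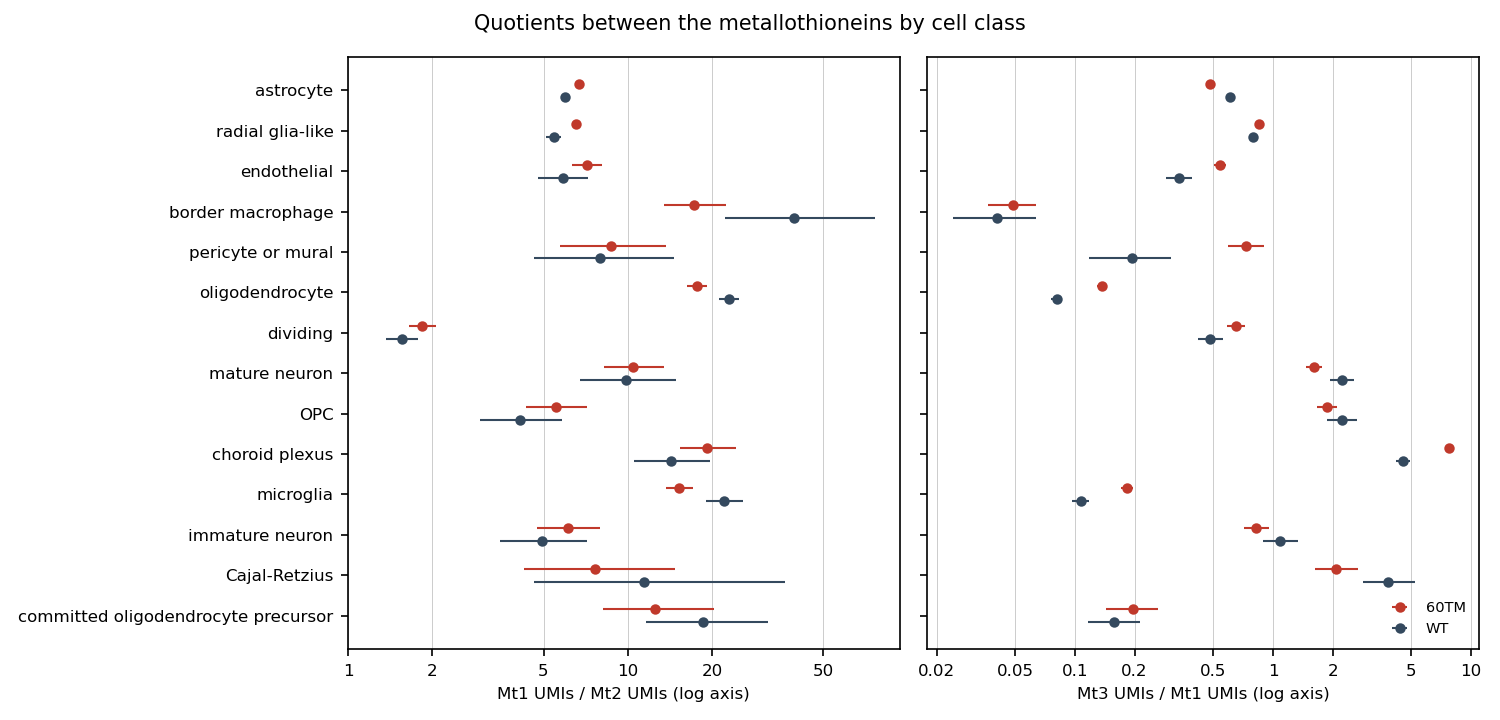
UMIs of Mt1 per UMI of Mt2 (left) and of Mt3 per UMI of Mt1 (right), both on log axes, in 14 cell classes (y axis), 60TM in red above WT in dark blue, with exact 95% intervals. The first quotient is lowest in dividing cells, 1.85 in 60TM and 1.56 in WT, and the second highest in choroid plexus, 7.78 in 60TM and 4.54 in WT.

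Within astrocytes the members varied together from cell to cell. After thinning, Pearson correlations over 1835 60TM cells and 883 WT cells were 0.637 in 60TM and 0.538 in WT for Mt1 with Mt2, and 0.643 in 60TM and 0.616 in WT for Mt1 with Mt3. For Mt2 with Mt3 they were 0.427 in 60TM and 0.365 in WT. Within cluster 3 they were 0.604 in 60TM and 0.617 in WT for Mt1 with Mt3, and within cluster 2 they were 0.459 in 60TM and 0.555 in WT. In choroid plexus, where Mt3 is high, Mt1 with Mt3 gave 0.134 in 60TM and 0.201 in WT. These cells share a library, and counts of Mt2 are sparse.

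Over single WT astrocytes, the genes most like Mt1 among 3030 were Mt3, Ckb, Mt2, Aldoc and Dbi. Ckb, brain creatine kinase, correlated at 0.383 in 60TM and 0.540 in WT, and Aldoc, the brain aldolase and an astrocyte marker, at 0.200 in 60TM and 0.504 in WT. For Mt2 they were Mt1, Mt3, Ckb, Aldoc and Ppia, and for Mt3 they were Mt1, Ckb, Aldoc, Gstm5 and Ubb. In 60TM astrocytes Fth1, the ferritin heavy chain, came next for Mt1 after Mt3 and Mt2, a gene looked up after its values were seen. Its correlation with Mt1 was 0.596 in 60TM and 0.284 in WT. Over the 28 class-by-library sums, where the points share libraries and astrocytes weigh heavily, the genes most like Mt1 among 11911 were Fgd6 (0.907), Mt2, Fam107a, Mlc1 and Gfap. Those most like Mt2 were Acsbg1 (0.934), Mlc1, Ntsr2, Pxmp2 and Cldn10, and those most like Mt3 were Tmem47 (0.902), Clu, Nim1k, Nwd1 and Aox1. Mt3 itself came 214th for Mt1.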

How the data were processed

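Droplet 3′ single-cell libraries of 1 60TM and 1 WT pool of 3 mice were used, grouped by genotype label. The authors deposited raw UMI counts per gene and barcode, made with Cell Ranger 5.0.0 on GRCm38 per the submitters' processing notes. The deposited tables of genes and of barcodes (unit other) hold only identifiers. The sources do not state whether intronic reads were counted. The labels give 54044 reads per cell for 60TM and 63967 for WT.

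Barcodes with under 500 genes (338 in 60TM and 264 in WT) or over 15% mitochondrial UMIs (384 and 232) were removed. The highest Scrublet scores (scanpy 1.11.5) were removed at 0.8% per 1000 barcodes, 610 in 60TM (6.99%) and 377 in WT (5.49%). Both libraries were clustered together without the members (2000 variable genes, 30 components, 15 neighbours, Leiden resolution 1). Clusters were named from markers with a log2 ratio of at least 1 to other clusters and a UMI in at least 20% of cells, at least 3 per class, with the runner-up class under 66.7% of the median. Clusters under 33.3% of the usual depth needed an own marker among 10 leading genes. Unnamed clusters held 6.84% of 60TM cells and 5.24% of WT cells.

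UMIs were summed per class and scaled to CPM. Ratios (60TM over WT) have exact conditional-binomial intervals, sums exact Poisson and shares exact Clopper-Pearson intervals (scipy 1.17.1). A gene counts as called past 1.5-fold with at least 100 UMIs in both libraries together. List medians use log2 of CPM + 5, and a floor of 3 UMIs stands for 0 where named. Like genes needed 500 UMIs over the sums or a UMI in 10% of cells. Named genes are the members, 5 like genes per member and, per list, the 3 highest and 3 lowest by the interval bound nearest 1. The interval method and thinning were checked on simulated counts. Members, lists and markers were chosen with earlier results of these data known. Promoter sequences are from RefSeq (all 3 members matched), and coordinates from GENCODE M21.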

Additional observations from a re-analysis of the deposited data

Results flagged for a closer look

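In choroid plexus Mt1 and Mt2 passed 1.5-fold lower in 60TM. Its ratio was 0.510 for Mt1, where 7 classes passed 1.5-fold higher, and 0.376 for Mt2, where 4 classes did. Mt1 also lay below 1 in microglia (0.960) and in committed oligodendrocyte precursors (0.854). The other gene and mitochondrial limits gave choroid plexus ratios of 0.724 for Mt1 and 0.881 for Mt2, doublets kept gave 0.704 for Mt1, classes by marker score 0.736 for Mt1 and a mean over cells 0.884 for Mt2, all short of 1.5-fold. Whether these ratios differ between classes was not tested, since each genotype has 1 library.

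Within astrocytes, cluster 2, led by Agt and Hes5, had ratios of 0.919 for Mt1, 0.846 for Mt2 and 0.864 for Mt3, opposite to the other 3 astrocyte clusters, and this difference was not tested either. Within microglia, Mt1 was lower in 60TM in the cluster led by Rgs1 (0.786) and in that led by Fosb (0.875), but higher in an interferon-gene cluster of 126 cells in 60TM and 6 in WT, where WT had 2 Mt1 UMIs.

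Data outside the comparisons also held metallothionein signal above WT. Barcodes removed for few genes had ratios of 4.05 for Mt1, 2.99 for Mt2 and 2.78 for Mt3. Unnamed cluster 8, shallow with astrocyte genes, had 2.02 for Mt1. Unnamed cluster 15, with pericyte and endothelial markers, had 2.67 for Mt1 and 3.17 for Mt3.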

How the results depend on the processing

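No paired analysis was possible because each genotype has 1 library. All 42 astrocyte ratios under the alternatives stayed above 1, and none moved over 1.5 times. The values below lie outside the counting interval of the reported ratio. For Mt1 they were 1.39 with limits of 200 genes and 5% mitochondrial UMIs per cell, 1.52 thinned, 1.63 with free RNA subtracted by either profile, 1.63 with the members among the variable genes, 1.69 with median-ratio size factors, 1.64 without mitochondrial and ribosomal genes, 1.33 without the Lcn2-led cluster, 1.64 with unnamed clusters added and 1.20 with WT cluster shares. For Mt2 they were 1.26 with the other gene and mitochondrial limits, 1.32 thinned, 1.498 with median-ratio size factors, 1.13 without the Lcn2-led cluster and 1.06 with WT cluster shares. For Mt3 they were 1.15 with the other limits, 1.30 as a mean over cells, 1.28 with free RNA subtracted by the library profile, 1.30 with the members among the variable genes, 1.33 with median-ratio size factors, 1.29 without mitochondrial and ribosomal genes, 1.15 without the Lcn2-led cluster, 1.295 with unnamed clusters added and 1.04 with WT cluster shares. Mt1 dropped under 1.5-fold in 3 of these settings.

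In the other classes 384 of 409 values kept the direction. For 22 ratios past 1.5-fold with an interval clear of 1, here also counted under 100 UMIs, 198 of 231 values stayed past it. Directions of these 22 ratios turned in 7 values, 6 of them with free RNA subtracted. Mt3 of border macrophages and Mt2 of Cajal-Retzius cells, among them, had under 100 UMIs. Mt3 turned in border macrophages to 0.184 with the library profile, 0 with the few-gene profile and 0.636 in cells without astrocyte tracers, and in microglia to 0 with the library profile. With the few-gene profile, Mt1 turned to 0.718 in OPCs and to 0.123 in Cajal-Retzius cells, where Mt2 turned to 0.777. Subtraction itself removes more Mt1 in 60TM, where the profile holds more. Summed over classes, 2986 genes passed 1.5-fold higher and 2617 lower, which became 11950 and 11540 with at least 20 UMIs and 48625 and 42901 with at least 1 UMI, since low counts scatter more. The few-gene profile, tracer-free cells, the shallow cluster and WT cluster shares were chosen after seeing the data. Depth limits Mt2 most, with under 100 UMIs in 4 classes.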

Other observations

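Unnamed clusters and removed barcodes carried values that enter no comparison above. In unnamed cluster 15, led by Rgs5, Vtn and Higd1b, 118 60TM cells held Mt1 at 2498 CPM and 34 WT cells at 936 CPM. In unnamed cluster 16, shallow and led by Cd52 and Tyrobp, Mt1 was lower in 60TM, 422 CPM against 852 CPM in WT, a ratio of 0.496 (0.398 to 0.618), while Mt3 stood at 141 CPM in 60TM and 138 CPM in WT. Neuroblasts with Dlx genes, 51 cells in 60TM and 41 in WT, had 49 Mt1 UMIs in 60TM and 8 in WT, a ratio of 4.38 (2.06 to 10.7).

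Barcodes removed as doublets had Mt1 at 4072 CPM in 60TM and 1817 CPM in WT, and those removed for mitochondrial share at 3793 CPM in 60TM and 1360 CPM in WT. In astrocytes Slc39a4, an intestinal zinc importer noticed after its values were seen, had 99 UMIs in 60TM and 0 in WT, which is under the 100 UMIs required of a measured gene.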
